A study of Mus musculus with 6 samples.

Results

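The genes described here are 9 transcripts known from osteoclasts and from macrophages that fuse into giant cells: Dcstamp, Ocstamp, Atp6v0d2, Acp5, Cdh1, Tnfrsf11a, Ctsk, Nfatc1 and Calcr. They were taken by symbol from a list, and all 9 were found among the 25124 genes of the deposited table. They were measured in macrophages (BMDM) that had been grown out of the bone marrow of wild-type C57BL/6 mice, 8 weeks old, during 7 days with 20 ng/ml macrophage colony-stimulating factor (M-CSF). The M0 group (3 libraries) stayed in M-CSF at 20 ng/ml, and the M2 group (3 libraries) was given 10 ng/ml interleukin-4 (IL-4) together with the same M-CSF. RNA was taken 4 h later. The protocols in the labels name no treatment with RANKL, the cytokine used to make osteoclasts. The labels do not say whether the libraries of a group came from separate mice or cultures, so p-values measure only the spread between these libraries.

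Osteoclasts are bone-resorbing cells that form when M-CSF-dependent precursors receive RANKL through the receptor RANK, which leads to induction of the transcription factor NFATc1. The precursors then fuse, with the multipass membrane proteins DC-STAMP and OC-STAMP required, and resorb bone by secreting acid and the collagenase cathepsin K. Macrophages exposed to IL-4 can fuse into multinucleated giant cells, a process that also uses DC-STAMP and in which E-cadherin takes part.

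After 4 h of IL-4, transcripts of the fusion genes Dcstamp and Ocstamp were 7.06-fold and 8.56-fold higher in mean TPM, a level corrected for transcript length and library size. The deposited TPM of all listed genes sum to 542749 to 553186 in a library, less than the full scale of the unit, so that a value is not a share of the listed transcripts. The proton pump subunit gene Atp6v0d2 was 3.83-fold higher, the phosphatase gene Acp5 4.62-fold and the cathepsin K gene Ctsk 2.59-fold. E-cadherin, Cdh1, was 16.6-fold higher from a level below 1 TPM. The receptor gene Tnfrsf11a went the other way and was 3.62-fold lower. Nfatc1 stayed near 15 TPM in all 6 libraries, and no read of Calcr was found.

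Genes were tested with limma-trend on log2 of TPM plus 1, with adjusted p-values over all 11235 genes that reached 1 TPM in at least 3 libraries. Of the 9 genes, 8 were tested, 6 rose, 1 fell and 1 did not pass at an adjusted p under 0.05. Of all tested genes 62.9% passed, 17.7% rose and 45.3% fell. A log2 fold change of at least 1, which all 6 members that rose had, was found in 3.35% of tested genes, and a fall of that size, as for Tnfrsf11a, in 4.61%. Cdh1 reached 1 TPM in no M0 library and passed the filter only through the M2 libraries, where it is high, so that it had to differ and its call supports nothing beyond that. Dcstamp reached 1 TPM in 1 M0 library and in all 3 M2 libraries, so that it too could pass only with the M2 libraries, where it is high. Both genes are among the 6 that rose by a log2 fold change of at least 1, so that this count leans on the filter. Dividing each library by its median-ratio factor (median scaling) moved the median log2 fold change of all genes from -0.15 to 0.00, and the median of the shifts of single genes was 0.16. With that scaling 28.7% of tested genes rose and 28.5% fell, and Nfatc1 joined the genes that rose.

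The libraries held 16913187 to 19019904 reads in genes. M0 replicate 2 stood apart from the other M0 libraries, at 9.52 and 10.7 times the scatter that counting alone gives (chi-square over its degrees of freedom), where M0 replicates 1 and 3 gave 2.31 and pairs of M2 libraries 1.54 to 1.73. Of 10 genes checked for macrophages and the IL-4 response, Csf1r, Cd68, Itgam, Lyz2 and Adgre1 had group means of at least 238 TPM. Of these, Csf1r and Cd68 rose (log2 fold changes 0.44 and 0.13), Itgam and Lyz2 fell (-0.16 and -0.19) and Adgre1 did not pass. The macrophage gene Fcgr1 fell from 128 ± 7.55 to 20.6 ± 1.05 TPM (log2 fold change -2.58, adjusted p = 2e-10). Arg1, Retnla and Chil3, markers of the IL-4 response, and Mrc1 (207 and 520 TPM) rose in the M2 libraries. Retnla (0.172 ± 0.200 TPM in M0 and 4859 ± 135 TPM in M2) passed the filter only through the M2 libraries, where it is high. After median scaling 7 of the 10 rose and Fcgr1 alone fell. Markers of other cells were mostly below 1 TPM. All 7 epithelial markers, all 7 mast cell and basophil markers and all 6 lymphocyte markers were below 1 TPM in every library, with Cldn4, Mcpt8 and Tpsb2 at 0. The 10 osteoblast and stroma markers summed to 15.4 to 16.8 TPM in M0 and 14.5 to 15.0 TPM in M2, with Bglap at 0. Of these, 4 were tested. Kitl (5.69 TPM in M0 and 4.62 in M2), Col1a2 (4.92 and 3.99) and Col1a1 (3.51 and 2.40) fell, and Runx2 (1.63 and 3.10) rose. After median scaling 1 rose and 1 fell. The 8 neutrophil markers summed to 35.5 to 41.9 and 31.95 to 40.1 TPM. The 4 tested did not pass, S100a9 (15.0 and 13.9 TPM), S100a8 (14.6 and 13.1) and Ngp (7.28 and 6.68) being the highest. The dendritic cell list rose from 18.7 to 21.8 TPM in M0 to 171 to 180 TPM in M2. Itgax, an integrin gene that macrophages also express, was its highest gene and the 1 of 7 that was tested, at 19.8 ± 1.43 and 175 ± 4.45 TPM (SD, n = 3). Flt3, Cd209a, Xcr1, Clec9a and Siglech, 5 of the 7, were below 1 TPM in every library. Zbtb46, the remaining gene of the list, went from 0.077 ± 0.0484 to 1.06 ± 0.0641 TPM and missed the filter for testing. After median scaling it passed that filter only through the M2 libraries, where it is high. It had to differ there (log2 fold change 0.98), and that call supports nothing beyond this. The part of these cells in the members' changes was not tested. In bulk samples, fewer cells of a type and less RNA per cell cannot be told apart.

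The RefSeq promoter table (GRCm38.p6, the mm10 assembly) held windows for 4 of the 9 genes. The 250 bases before the deposited transcript start are shown for Acp5 and Ctsk, which rose, and for Tnfrsf11a, which fell, since these are the members with opposite changes whose windows could be read. Sequences run 5′ to 3′ on the strand of the gene, and capitals mark matches to any of 7 motifs searched on both strands.
Acp5, chr9:22130599-22130848, minus strand: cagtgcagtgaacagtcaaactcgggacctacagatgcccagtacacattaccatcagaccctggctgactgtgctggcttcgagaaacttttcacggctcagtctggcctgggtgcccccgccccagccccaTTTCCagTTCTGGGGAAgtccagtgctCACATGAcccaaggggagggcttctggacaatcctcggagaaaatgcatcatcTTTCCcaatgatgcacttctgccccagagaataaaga
Ctsk, chr3:95498960-95499209, plus strand: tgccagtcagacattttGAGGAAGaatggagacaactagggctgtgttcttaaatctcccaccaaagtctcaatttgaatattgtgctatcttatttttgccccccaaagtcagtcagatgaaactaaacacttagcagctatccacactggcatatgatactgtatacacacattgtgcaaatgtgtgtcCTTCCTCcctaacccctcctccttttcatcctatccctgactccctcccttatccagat
Tnfrsf11a, chr1:105780473-105780722, plus strand: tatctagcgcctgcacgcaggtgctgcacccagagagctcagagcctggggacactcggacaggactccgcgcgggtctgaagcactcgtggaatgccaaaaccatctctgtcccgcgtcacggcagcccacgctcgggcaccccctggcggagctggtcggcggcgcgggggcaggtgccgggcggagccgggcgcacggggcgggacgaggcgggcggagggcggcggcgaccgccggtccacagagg

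The motifs were the STAT6-type palindrome (arms TTC and GAA with 4 bases between), TTCNNNGAA (other STAT factors), TGANTCA (AP-1), GGAAA (the NFAT core), TCATGTG and CACGTG (the M-box and E-box of MITF and TFE factors) and GAGGAAG (PU.1-type). Of 32851 windows of the same length, 5.85%, 7.02%, 6.75%, 55.6%, 3.25%, 6.02% and 10.6% held them, in that order. The Acp5 window held a STAT6-type palindrome at bases -110 to -101 from the start, an M-box at -90 to -84 and NFAT cores at -117 to -113 and -37 to -33, with no letters shared between them. The windows of the other 2 Acp5 starts in the table held 1 NFAT core each. The Ctsk window held PU.1-type letters at -233 to -227 and -59 to -53, and the Tnfrsf11a window held none of the 7. A match of letters is a description of the sequence and no measure of binding.

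Tnfrsf11a encodes RANK, the receptor for RANKL (transcript NM_009399, mm10 chromosome 1, positions 105780723 to 105847981, plus strand, 10 exons). It stood at 37.8, 43.8 and 38.7 TPM in the M0 libraries and at 11.2, 10.5 and 11.5 TPM in the M2 libraries. Every M2 library was below every M0 library, with M0 replicate 2 the highest of all, and 49.8% of tested genes showed M2 wholly below M0. The log2 fold change was -1.77 (SE 0.07, adjusted p = 9e-09), the 86th largest fall of the 11235. It was -1.70 without M0 replicate 2 and -1.61 after median scaling. The authors' deposited table gave a log2 fold change of -1.68 (adjusted p = 2.3e-128).

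Nfatc1, the transcription factor gene that RANKL induces in osteoclast precursors, lies on chromosome 18 at positions 80606205 to 80708173 (minus strand, transcript NM_001164111). It measured 15.4, 15.4 and 14.7 TPM in M0 and 15.0, 15.7 and 16.2 TPM in M2, so that the groups overlapped. Its log2 fold change was 0.04, with a 95% interval from -0.09 to 0.17 (adjusted p = 0.6). The summed reads, 2925 in M0 and 3097 in M2, gave a TPM ratio of 1.03 with a counting interval of 0.978 to 1.08. The call depended on scaling. The log2 fold change was 0.20 after median scaling (adjusted p = 0.011), 0.21 with limma-voom on recovered reads (adjusted p = 0.0054) and 0.20 when the log2-scale values of the authors were fitted instead (adjusted p = 0.0034). The authors' deposited table gave 0.22 (adjusted p = 0.0062), on transcript NM_001164112, which has 289 exonic bases that the transcript of the TPM table lacks.

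Calcr, the gene of the calcitonin receptor found on mature osteoclasts (chromosome 6, positions 3685720 to 3763623, 15 exons), had 0 reads in all 6 libraries. A count of 0 allows up to 3 reads, or 0.0530 to 0.0608 TPM, in a library. Its level was therefore not detectable at this depth in either group. The related receptor gene Calcrl, whose product binds CGRP and adrenomedullin, fell from 14.7 ± 2.43 to 6.36 ± 0.444 TPM (SD, n = 3 each, log2 fold change -1.08, adjusted p = 8.5e-06).

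Dcstamp encodes DC-STAMP, the dendritic cell-specific transmembrane protein needed for fusion of osteoclasts and foreign body giant cells (transcript NM_001289508, chromosome 15, positions 39745930 to 39760938, plus strand, 4 exons). It measured 0.967, 1.12 and 0.958 TPM in M0 and 7.52, 6.76 and 7.22 TPM in M2. All M2 libraries lay above all M0 libraries, a separation seen in 19.6% of tested genes. The M0 values rest on 25 to 31 reads per library and the M2 values on 185 to 216. The log2 fold change was 2.02 (SE 0.08, adjusted p = 1.3e-08), and the ratio from summed reads was 7.05 (counting interval 5.59 to 8.98). The size on the log2 scale depends on the pseudocount, with 2.71 at a pseudocount of 0.1 and 1.02 at 5. The authors' deposited table gave a log2 fold change of 2.83, for transcript NM_001289506, which holds all 1825 bases of the other transcript and 172 more.

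Ocstamp encodes OC-STAMP, a related multipass membrane protein required for osteoclast fusion (transcript NM_029021, chromosome 2, positions 165395450 to 165400394, minus strand). It measured 1.44, 1.25 and 1.36 TPM in M0 and 12.3, 10.7 and 11.7 TPM in M2. The lowest M2 library stood well above the highest M0 library, and the log2 size again moved with the pseudocount, from 3.01 at 0.1 to 1.38 at 5. Its log2 fold change of 2.42 (SE 0.08, adjusted p = 3.2e-09) was the largest of the 9 genes on this scale and the 74th largest rise of all tested genes. The deposited transcript is 1951 bases long, whereas the GENCODE M21 transcript with the same RefSeq identifier has 3657 exonic bases and reaches further at the 3′ end. Within each library Ocstamp stood above Dcstamp, at 1.49, 1.12 and 1.42 times its TPM in M0 and 1.63, 1.58 and 1.62 times in M2.

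Atp6v0d2 encodes the d2 subunit in the membrane sector of the vacuolar proton pump, an isoform enriched in osteoclasts and required for their fusion (NM_175406, chromosome 4, positions 19876838 to 19922566, minus strand, 8 exons). It was the most abundant of the 9 genes in both groups, at 122, 143 and 121 TPM in M0 and 488, 495 and 500.5 TPM in M2. Among tested genes 93.9% had a lower mean in M0 and 98.8% in M2. M0 replicate 2 was the highest of the M0 libraries, and no M0 value came near an M2 value. The log2 fold change was 1.93 (SE 0.06, adjusted p = 1.9e-09), 2.01 without M0 replicate 2 and 2.10 after median scaling. The ubiquitous isoform gene Atp6v0d1 measured 134 ± 1.80 TPM in M0 and 142 ± 1.06 TPM in M2. Its log2 fold change of 0.08 missed the threshold (adjusted p = 0.082) and passed after median scaling (0.25, adjusted p = 0.00053) and without M0 replicate 2 (0.08, adjusted p = 0.029). Atp6v0d2 thus made up 47.3%, 51.6% and 47.8% of the summed TPM of the d isoforms in M0 and 77.5%, 77.5% and 78.0% in M2.

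Cdh1 encodes E-cadherin, an adhesion protein of epithelia that macrophages make in response to IL-4 (NM_009864, chromosome 8, positions 106603350 to 106670247, plus strand, 16 exons). It measured 0.163, 0.135 and 0.111 TPM in M0, from 7 to 11 reads per library, and 2.37, 2.19 and 2.23 TPM in M2, from 145 to 161 reads. All M2 values lay above all M0 values. The ratio from summed reads was 16.5, with a counting interval of 11.2 to 25.3. On log2 of TPM plus 1 the change was 1.52 (SE 0.09, adjusted p = 1.6e-07), and this size depends on the pseudocount, with 3.33 at a pseudocount of 0.1 and 0.50 at 5. All 7 epithelial markers listed, Epcam and the keratin genes Krt8, Krt18 and Krt19 among them, summed to 0.073 to 0.254 TPM in M0 and 0 to 0.347 TPM in M2. Cdh1 made up 9.57%, 7.92% and 7.13% of the TPM of 5 listed cadherins in M0 and 80.5%, 75.3% and 77.8% in M2. The other listed cadherins had group means of at most 0.731 TPM and were not tested. Cdh5 (0.731 ± 0.0311 and 0.110 ± 0.0359 TPM) and Cdh11 (0.645 ± 0.0670 and 0.468 ± 0.0406 TPM) were lower in M2, so that the share moves with them too.

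Acp5 encodes tartrate-resistant acid phosphatase, the enzyme stained to identify osteoclasts (NM_007388, chromosome 9, positions 22126727 to 22130598, minus strand, 5 exons, promoter window shown above). It measured 19.2, 19.3 and 20.8 TPM in M0 and 95.1, 88.6 and 89.9 TPM in M2. The spread within a group was small beside the gap between groups, and the log2 fold change was 2.15 (SE 0.05, adjusted p = 3.3e-10). An antisense noncoding gene, 6530413G14Rik, overlaps 137 exonic bases of Acp5, and the library kit named in the labels does not mark strand, so that reads there cannot be told apart. The lysosomal acid phosphatase gene Acp2 fell from 77.6 ± 7.09 to 55.1 ± 0.373 TPM (log2 fold change -0.48, adjusted p = 7e-05). The TPM of Acp5 was 0.225 to 0.289 times that of Acp2 in M0 libraries and 1.62 to 1.72 times in M2 libraries.

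Ctsk encodes cathepsin K, the cysteine protease that cuts bone collagen (NM_007802, chromosome 3, positions 95499210 to 95509387, plus strand, 8 exons, window shown above). It measured 7.48, 6.60 and 5.07 TPM in M0 and 16.8, 14.96 and 17.7 TPM in M2. M0 replicate 3 was the lowest library, and the groups did not overlap. The log2 fold change was 1.26 (SE 0.12, adjusted p = 7.4e-06), the least precise of the members that passed, and ranged from 1.12 to 1.36 when each library was left out. Ctsk was a minor cathepsin in both groups, at 0.0577% to 0.0847% of the TPM of 9 papain-type cathepsins in M0 and 0.128% to 0.15% in M2. Ctss and Ctsl, lysosomal proteases of the same family, rose with log2 fold changes of 0.75 and 0.61, from 2162 ± 77.8 and 1149 ± 46.2 TPM in M0. Ctsb stood at 4345 ± 38.8 and 4429 ± 26.0 TPM. Its log2 fold change was 0.03 (adjusted p = 0.38), and it passed after median scaling (0.20, adjusted p = 0.00077).

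**Figure D1:**
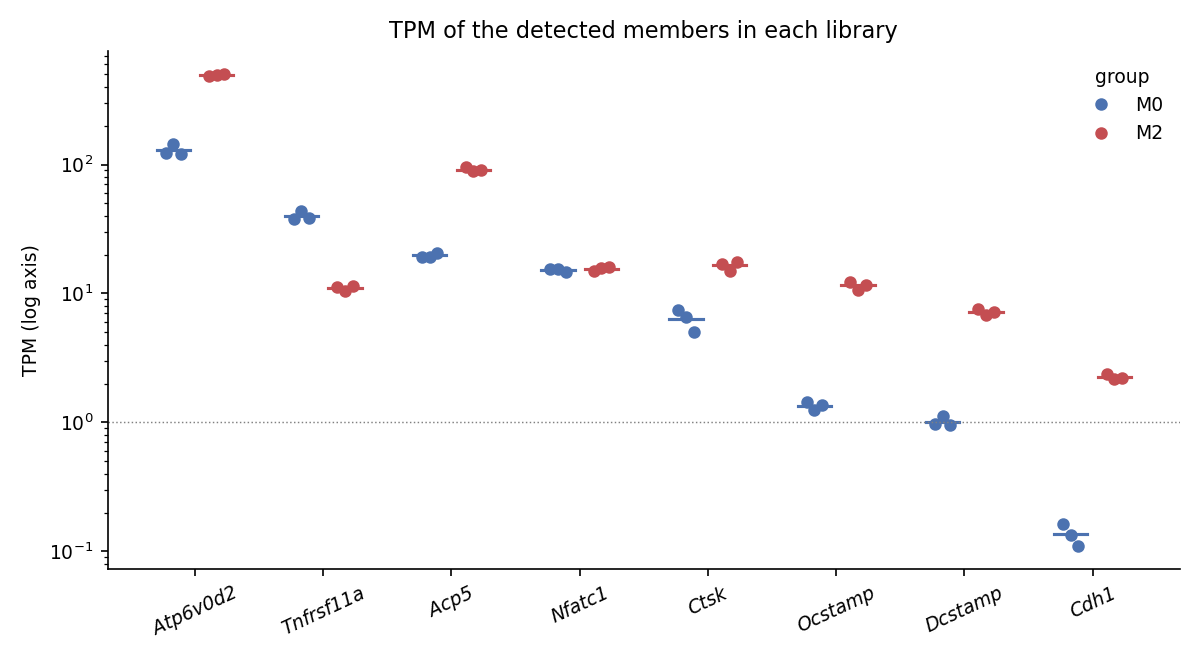
TPM (log axis) of the 8 detected genes in each of 3 M0 and 3 M2 libraries, with points for libraries, short bars for group means and a dotted line at 1 TPM. The groups are apart for every gene but Nfatc1, which lies between 14.7 and 16.2 TPM in all libraries, and Calcr, at 0 throughout, is left out.

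The order of levels changed between the groups. In M0 the order by mean TPM was Atp6v0d2, Tnfrsf11a, Acp5, Nfatc1, Ctsk, Ocstamp, Dcstamp, Cdh1 and Calcr, and no neighbours overlapped. In M2 it was Atp6v0d2, Acp5, Ctsk, Nfatc1, Ocstamp, Tnfrsf11a, Dcstamp, Cdh1 and Calcr. There Ctsk (16.5 ± 1.39 TPM) overlapped Nfatc1 (15.6 ± 0.582 TPM), and Ocstamp (11.6 ± 0.808 TPM) overlapped Tnfrsf11a (11.1 ± 0.503 TPM). Tnfrsf11a, second in M0 at 40.1 ± 3.21 TPM, was thus level with Ocstamp in M2.

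**Figure D2:**
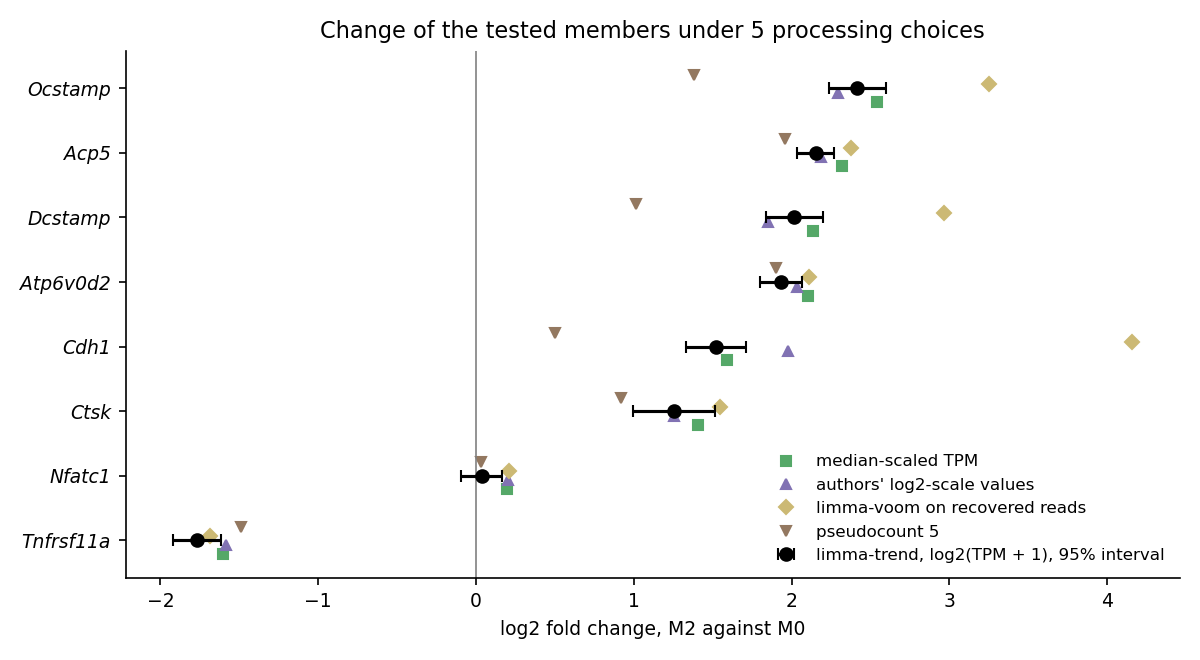
Log2 fold change, M2 against M0, of the 8 tested genes, with black points and 95% intervals for limma-trend on log2 of TPM plus 1 and coloured symbols for 4 other processing choices. Ocstamp, Acp5, Dcstamp, Atp6v0d2, Cdh1 and Ctsk are above 0 and Tnfrsf11a below 0 under each choice drawn, the size for Cdh1 ranges from 0.50 to 4.16, and Nfatc1 lies between 0.03 and 0.21.

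The genes whose profiles over the 6 libraries were nearest to a member, by root mean square difference of log2 of TPM plus 1 relative to the M0 mean, were taken 2 for each of the 7 members that passed. For Dcstamp they were Apol7c (0.02) and Fchsd2 (0.05), for Atp6v0d2 Ksr2 and Fchsd2 (both 0.04), and for Ocstamp Serpina3g and Smap2 (both 0.08). Acp5 was nearest to Chil4 and Bhlhe40 (both 0.07), Cdh1 to Mapkapk3 (0.03) and Aldh1b1 (0.04), and Ctsk to Cd40 (0.08) and 5830432E09Rik (0.10). Tnfrsf11a was nearest to Mef2a (0.06) and Il1rn (0.07). None of these was itself a member. Apol7c, Serpina3g, Ksr2 and Chil4 had M0 means of at most 0.289 TPM, and Chil4 was listed at 0 in M0. With a pseudocount of 1, near profiles need not mean near folds of TPM. Apol7c went from 0.0217 to 3.08 TPM, where Dcstamp went from 1.02 to 7.17 TPM. Mapkapk3 went from 27.9 to 81.3 TPM, where Cdh1 went from 0.136 to 2.26 TPM.

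The genes around these members were described from lists of related genes. The fusion list held 24 surface proteins and regulators, of which 21 were tested, 8 rose, 10 fell and 3 did not pass (10 rose and 6 fell after median scaling). Its median log2 fold change was -0.08, against -0.15 for all tested genes. Ccl2, a chemokine gene described in giant cell formation, fell from 351 ± 15.2 to 99.0 ± 4.96 TPM (log2 fold change -1.82). Dock5, a Rac activator of the osteoclast podosome belt, Sh3pxd2a, the gene of the invadosome scaffold Tks5, and Myo10, a filopodial myosin, fell by 1.33, 1.28 and 1.25 on the log2 scale. The 8 that rose had smaller changes and were named after their values were seen. They were Mmp9 (0.91), Cd9 (0.56), Cd200r1 (0.54), Cd44 (0.49), Cd47 (0.44), Cd81 (0.43), P2rx7 (0.25) and Trem2 (0.20).

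Of 20 genes of the resorption machinery, 7 rose, 7 fell and 6 did not pass, with a median of 0.02 (13 rose and 6 fell after median scaling). The chains of the vitronectin receptor changed in opposite directions. Itgb3, the beta3 integrin gene, rose from 3.83 ± 0.233 to 33.4 ± 0.931 TPM (log2 fold change 2.83, adjusted p = 2e-10), whereas its partner Itgav fell from 39.1 ± 4.70 to 13.4 ± 0.0870 TPM (log2 fold change -1.47, adjusted p = 9.7e-08). Src, the kinase that organises the ruffled border, rose from 3.15 ± 0.218 to 15.6 ± 0.630 TPM. Car2, the carbonic anhydrase that supplies protons, rose from 0.193 ± 0.169 to 3.31 ± 0.613 TPM. It reached 1 TPM in no M0 library and passed the filter only through the M2 libraries, where it is high. Its call therefore supports nothing beyond that. In the same way Slc9b2, among those that fell (1.07 ± 0.0774 and 0.198 ± 0.0712 TPM), passed the filter only through the M0 libraries. Both counts of this list thus lean on the filter.

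Among 17 V-ATPase subunits and accessory genes other than Atp6v0d2, 4 rose, 5 fell and 8 did not pass, with a median of -0.02. After median scaling 9 rose and 1 fell. The subunit genes Atp6v0a1 and Atp6v1b2 rose with log2 fold changes of 1.20 and 0.96, and Atp6v1a with 0.36, while Atp6v0a2 fell with -0.35. Tcirg1, the gene of the a3 subunit of the osteoclast pump, measured 357 ± 16.3 TPM in M0 and 357 ± 7.73 TPM in M2. Its log2 fold change, -0.00 (adjusted p = 0.98), turned to 0.17 after median scaling (adjusted p = 0.018). Atp6v0d2, with 1.93, had a larger log2 fold change than each of the 17.

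**Figure D3:**
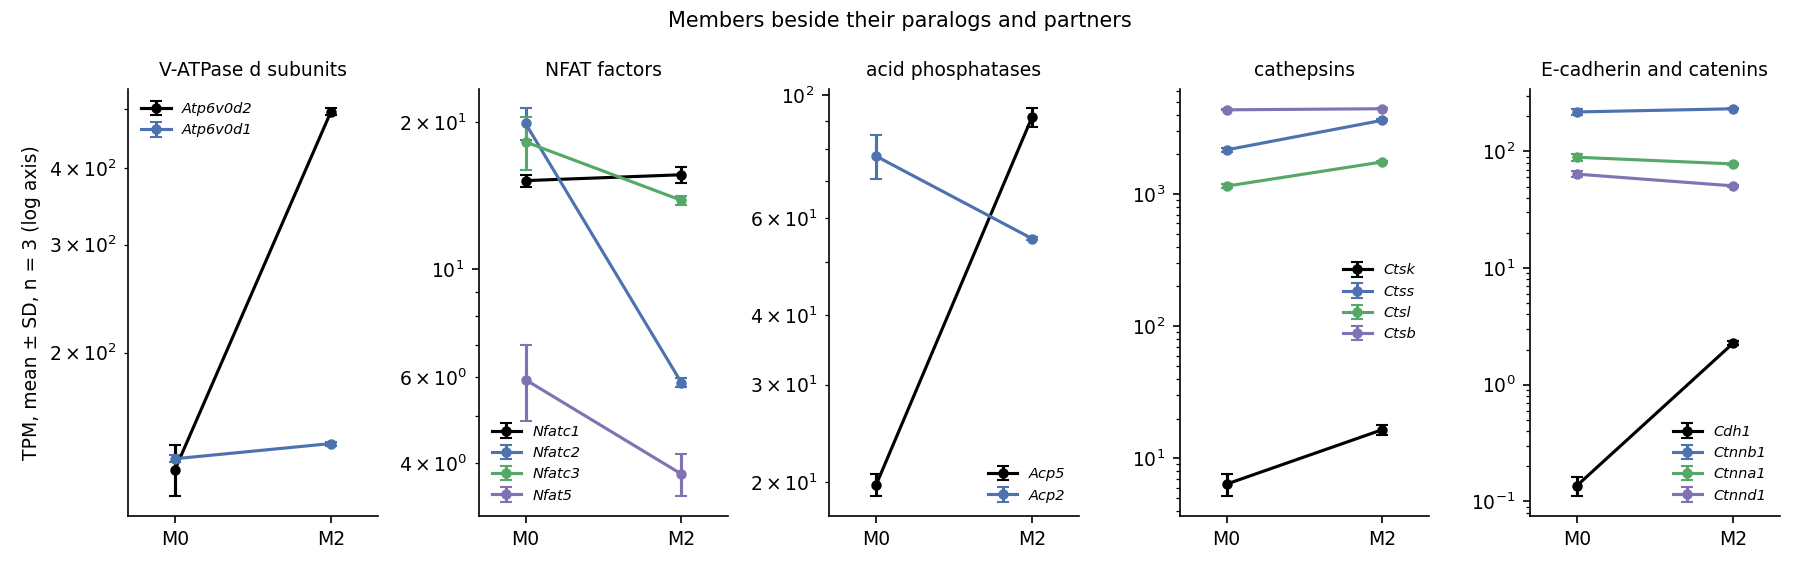
Mean TPM with SD (log axis, 3 libraries a group, each panel on its own scale) of members, in black, beside paralogs and partners in M0 and M2. Atp6v0d2 rises from 129 to 494 TPM beside Atp6v0d1 at 134 and 142 TPM, Acp5 and Acp2 cross, and Nfatc1 stays near 15 TPM while Nfatc2 falls from 19.9 to 5.85 TPM.

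Of 25 genes of RANK signalling, 22 were tested, 8 rose, 7 fell and 7 did not pass, with a median of -0.04 (9 rose and 7 fell after median scaling). Tnfsf11, the RANKL gene, had 0 reads in every library, where 3 reads would be 0.0821 to 0.0942 TPM, and the decoy receptor gene Tnfrsf11b was below the tested range at 0.0873 ± 0.0107 and 0.208 ± 0.0572 TPM. Traf6, the adaptor RANK signals through, stood at 8.34 ± 1.40 and 7.76 ± 0.217 TPM (adjusted p = 0.49). Of the 6 AP-1 genes in the list 3 fell and 3 rose, also after median scaling. Fos fell from 40.6 ± 0.962 to 9.62 ± 0.818 TPM, while Fosl2, Jund and Junb rose with log2 fold changes of 1.75, 1.36 and 1.03. The others that fell, Fosl1 (-0.84) and Jun (-0.38), were named after their values were seen. Fosl1 (1.93 ± 0.421 TPM in M0 and 0.634 ± 0.178 TPM in M2) passed the filter only through the M0 libraries, where it is high. Its call therefore supports nothing beyond that, and the count of AP-1 genes that fell leans on the filter.

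In the list of ITAM costimulation and calcium signalling, 14 of 17 were tested, 2 rose, 7 fell and 5 did not pass, with a median of -0.20 (6 rose and 4 fell after median scaling). Plcg2, a phospholipase upstream of calcium release, fell with a log2 fold change of -0.81, the calcineurin subunit gene Ppp3cb with -0.61, the calcineurin regulator Rcan1 with -0.51 and the ITAM adaptor Fcer1g with -0.47. The costimulatory receptor gene Oscar was below the tested range, at 0.0257 ± 0.0445 and 0.0737 ± 0.0661 TPM. Of the NFAT paralogs, 3 of 4 were tested and all 3 fell, also after median scaling. Nfatc2 fell from 19.9 ± 1.46 to 5.85 ± 0.123 TPM (log2 fold change -1.61, adjusted p = 2.1e-08), and Nfatc3 and Nfat5 with -0.37 and -0.52. Nfatc1 thus made up 26.8%, 23.8% and 26.6% of the summed TPM of the NFAT family in M0 and 38.7%, 39.4% and 41.6% in M2, with its own TPM level.

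Of 11 osteoclast transcription factors besides Nfatc1, 5 rose, 4 fell and 2 did not pass, with a median of 0.10 (6 rose and 3 fell after median scaling). Tfec and Mitf, MiT family factors, rose from 21.9 ± 2.0 to 63.4 ± 1.86 TPM and from 19.1 ± 1.69 to 29.5 ± 0.137 TPM. Prdm1, the gene of the repressor Blimp1, and Ppargc1b rose with log2 fold changes of 1.11 and 1.27. Ppargc1b (0.776 ± 0.0170 TPM in M0 and 3.28 ± 0.0811 TPM in M2) passed the filter only through the M2 libraries, where it is high. Its call therefore supports nothing beyond that, and the count of those that rose leans on the filter. The remaining gene that rose, Pparg (16.7 ± 1.54 to 35.2 ± 0.602 TPM, log2 fold change 1.03), was also named after its values were seen. Those that fell were Fos and, named in the same way, Myc (-1.07), Jdp2 (-0.73) and Tfe3, a further MiT factor. The -0.12 of Tfe3 (adjusted p = 0.028) turned to 0.04 after median scaling (adjusted p = 0.37). Of 12 genes that hold back osteoclast formation, 11 were tested, 4 rose, 5 fell and 2 did not pass, with a median of -0.07 (4 rose and 5 fell after median scaling). Egr2 rose from 4.14 ± 0.353 to 86.1 ± 0.863 TPM. Id1 fell from 75.7 ± 6.83 to 9.27 ± 0.940 TPM, and the log2 fold changes of Rbpj, Tnfaip3 and Bcl6, which also fell, were -1.14, -0.73 and -0.63. Irf8 rose slightly, with 0.11 (adjusted p = 0.038), a call lost without M0 replicate 1 or 3 (adjusted p = 0.073 and 0.053) or M2 replicate 1, 2 or 3 (0.1, 0.17 and 0.059).

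Of 13 cadherins, catenins and related genes, 7 were tested, 1 rose, 3 fell and 3 did not pass, with a median of -0.15. After median scaling 3 rose and 2 fell. The catenin gene Ctnnb1 measured 218 ± 12.2 TPM in M0 and 232 ± 1.87 TPM in M2. Its log2 fold change was 0.09 (adjusted p = 0.11), and it passed after median scaling (0.26) and without M0 replicate 2 (0.14, adjusted p = 0.0012). Ctnnd1 fell with -0.33, Vcl with -0.40 and Ctnna1 with -0.19, the last a call lost after median scaling (-0.02, adjusted p = 0.73), and Arvcf rose with 0.60. In the calcitonin receptor family 2 of 8 were tested, of which Calcrl fell and Ramp1, an accessory protein gene, rose (log2 fold change 0.61, adjusted p = 0.044), a call lost without M0 replicate 1 or 2 (both adjusted p = 0.12) or M2 replicate 1 or 2 (0.08 and 0.1), at a pseudocount of 5 (0.053) and with no filter (0.069). Of 10 papain-type cathepsins and cystatins, 6 rose, 3 fell and 1 did not pass, with a median of 0.55 (7 rose and 2 fell after median scaling), the largest being Ctsz with 0.87 and the inhibitor gene Cst3 with 0.82.

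**Figure D4:**
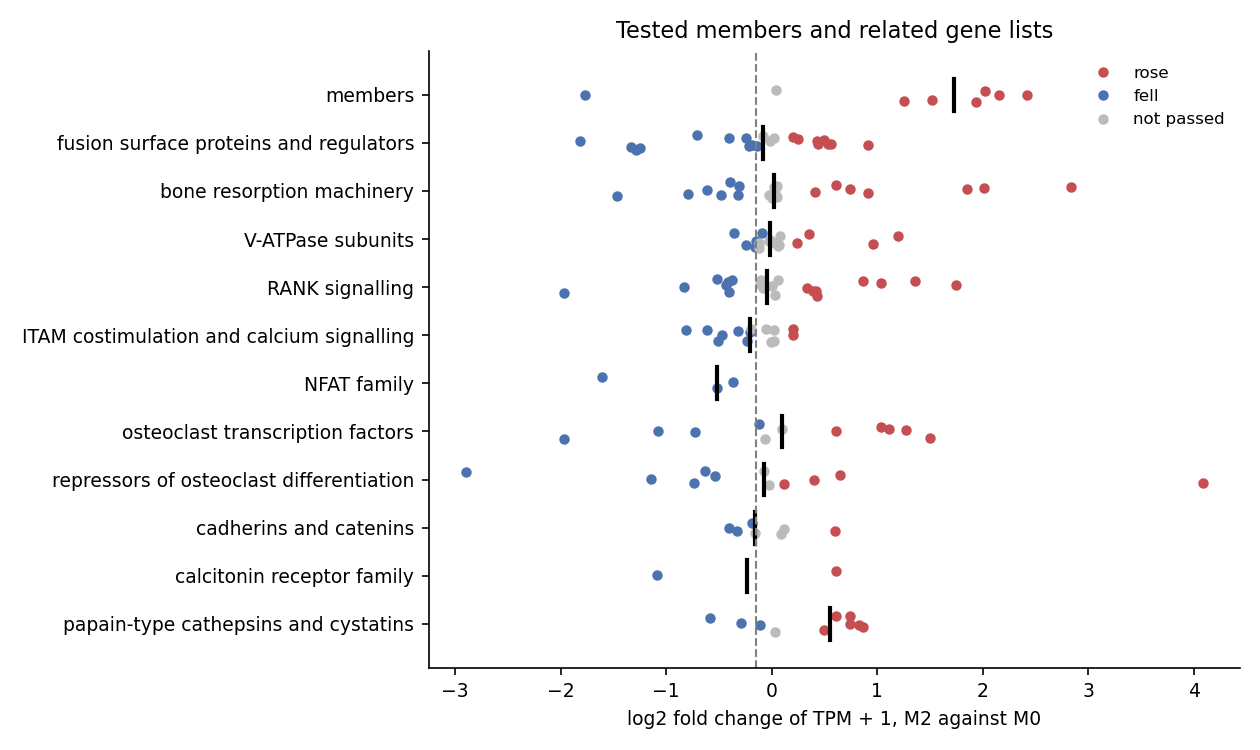
Log2 fold change of TPM plus 1, M2 against M0, of the tested members and 11 lists of related genes, coloured by call, with black bars at list medians and a dashed line at the median of all tested genes (-0.15). The members' median is 1.73 over 8 tested genes, and the lists' medians lie between -0.52 (NFAT family) and 0.55 (cathepsins and cystatins). Of the members, Cdh1 and Dcstamp passed the filter only with the M2 libraries, where they are high.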

How the data were processed

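Polyadenylated RNA of 3 M0 and 3 M2 libraries was sequenced. The submitters' processing notes name STAR, bcl2fastq, DESeq2, HOMER 4.11.1 and the mm10 build. Reads falling in RefSeq exons were quantified by HOMER, per the file headers, and each gene is listed with 1 transcript. The authors deposited TPM per library, and a comparison table with per-library log2-scale values of unnamed transformation, log2 fold changes and p-values with adjusted p-values. The tables keep different transcripts for 4515 of 25124 genes, and 3 entries shifted by commas were realigned.

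TPM multiplied by transcript length gave whole multiples of a fixed step (at least 99.99% within 0.1 read), from which reads were recovered. Exact intervals (95%) and the floor of 3 reads cover counting error only, and PCR copies are not independent molecules. Groups were compared by limma-trend (two-sided, robust, limma 3.58.1 under R 4.3.3), group being the only term, after adding a pseudocount of 1 to TPM and taking log2, for genes with at least 1 TPM in at least 3 libraries, with Benjamini-Hochberg adjustment. It was tried on simulated data. Lists were read from that fit. Tables and figures used Python 3.11.15.

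The members and lists were chosen with earlier results of these data known. Named genes were all members, fixed paralogs and partners, up to 4 genes per list with the largest change past the threshold, and the 2 nearest profiles per member past the threshold with a log2 fold change of at least 1 in size. Alternatives were pseudocounts of 0.1 and 5, no filter, median scaling, limma-voom with trimmed-mean factors on recovered reads, the authors' log2-scale values, a replicate block, and each library left out.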

Additional observations from a re-analysis of the deposited data

How the results depend on the processing

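Tnfrsf11a fell and Dcstamp, Ocstamp, Atp6v0d2, Acp5 and Ctsk rose under all 13 alternatives. In the main fit Dcstamp, like Cdh1, passed the filter only with the M2 libraries, where it is high. Cdh1 rose under the 10 that could test it. Without any 1 of the M2 libraries Cdh1 missed the filter of 3 libraries, so that the members that rose numbered 5 to 6 when each library was left out. They numbered 7 after median scaling, with limma-voom and with the authors' log2-scale values, where Nfatc1 passed. The genes that rose, 1983 of those tested, numbered 3227, 3272 and 3318 in these settings, and those that fell, 5088, numbered 3209, 3297 and 3323. Tcirg1, which had not passed, rose in them with 0.167, 0.167 and 0.163. Median scaling and limma-voom rescale the libraries by construction. For the authors' values, whose transformation is not named, the cause was not tested.

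Libraries with the same replicate number did not deviate together (correlations of 0.00, -0.00 and -0.04). With 3 libraries a group, this cannot show whether the numbers pair the samples, which the labels do not say. With the replicate block 6916 genes passed against 7071, with 6 members rising and 1 falling, and the calls of Irf8 (adjusted p = 0.075) and Ramp1 (adjusted p = 0.12) were not made. Depth limits Cdh1 in M0 (7 to 11 reads per library) and Calcr (0 reads).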
